A study of Mus musculus with 3 samples.

Results

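Neural stem-like tumour cells of mouse R26-SHH rhabdoid tumours are described here at the level of single genes. They were chosen by their expression: in each tumour, the 20% of gated cells with the highest share of UMIs (unique molecular identifiers, 1 per captured transcript) from Sox9, Gstm1, Nrgn, Fjx1 and 1500015O10Rik. This gave 1198 cells, 621 in tumour 1, 237 in tumour 2 and 340 in tumour 3. They were drawn from 5991 gated tumour cells among 28380 barcodes, and the 4793 gated cells outside the top 20% served as the comparison.

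Each of the 3 tumours comes from its own mouse of the genotype Rosa 26-CreERT2::Smarcb1flox/flox, in which tamoxifen given in early embryonic life recombines the floxed Smarcb1 gene, a core subunit of the SWI/SNF chromatin remodelling complex. The Cre is expressed from the Rosa26 locus and not from the promoter of 1 cell type, and the tumours were not sorted and hold host cells. All 3 belong to the same genotype and treatment, with no normal tissue or untreated group, so the comparison lies between cells inside each tumour. The mouse of tumour 3 was older than the others, and each tumour is a separate animal (n = 3).

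Neural stem cells of the developing forebrain are radial glia, which line the ventricle, express SOX and HES transcription factors together with glial proteins such as FABP7 and vimentin, and divide to give neurons and later glia. When a daughter cell starts on the neuronal path it switches on proneural factors such as NEUROG2, the Notch ligands of the Delta family, and then INSM1, SOX4 and SOX11. SOX9 marks the stem and glial side of this choice. GSTM1 conjugates glutathione to reactive compounds, NRGN (neurogranin) binds calmodulin, FJX1 is a Golgi kinase related to Drosophila Four-jointed in the Fat-Dachsous polarity system, and 1500015O10Rik encodes the secreted peptide precursor also called Ecrg4.

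A cell entered the gate with at least 5000 UMIs and at most 15% mitochondrial UMIs. It was left out with 2 or more of 3 marker genes of immune (C1qa, Tyrobp, Ctss), endothelial (Cldn5, Pecam1, Flt1), neuronal (Dcx, Stmn2, Elavl4) or mesenchymal cells (Col3a1, Twist1, Ogn) or with 3 or more of Top2a, Mki67, Cenpf and Ube2c, which mark G2 and mitosis. The ranking and gate genes and the mitochondrial genes are therefore given below without a test. Members and other cells had close median depths, 9891 against 9923.5 UMIs in tumour 1, 8075 against 8383 in tumour 2 and 18664 against 18965 in tumour 3. Their mitochondrial shares were also close, with medians of 4.45 against 4.41%, 4.30 against 4.60% and 3.82 against 4.09%. Summed over members, the depth was 6804758, 2123332 and 6909749 UMIs, so tumour 2 gives the least precise values. Between 22 and 42 barcode sequences were shared by each pair of libraries, out of 6428 to 12467 barcodes per library.

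The ranking share had no gap at the threshold. In tumour 1 the lowest member had 0.2793% of its UMIs in the 5 genes and the highest non-member 0.2791%. The same pair of values was 0.3548 and 0.3536% in tumour 2, and 0.3819 and 0.3817% in tumour 3. The members are thus the upper end of a continuous range, with median shares of 0.459, 0.541 and 0.520% against 0.0635, 0.0724 and 0.144% in the other cells.

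**Figure D1:**
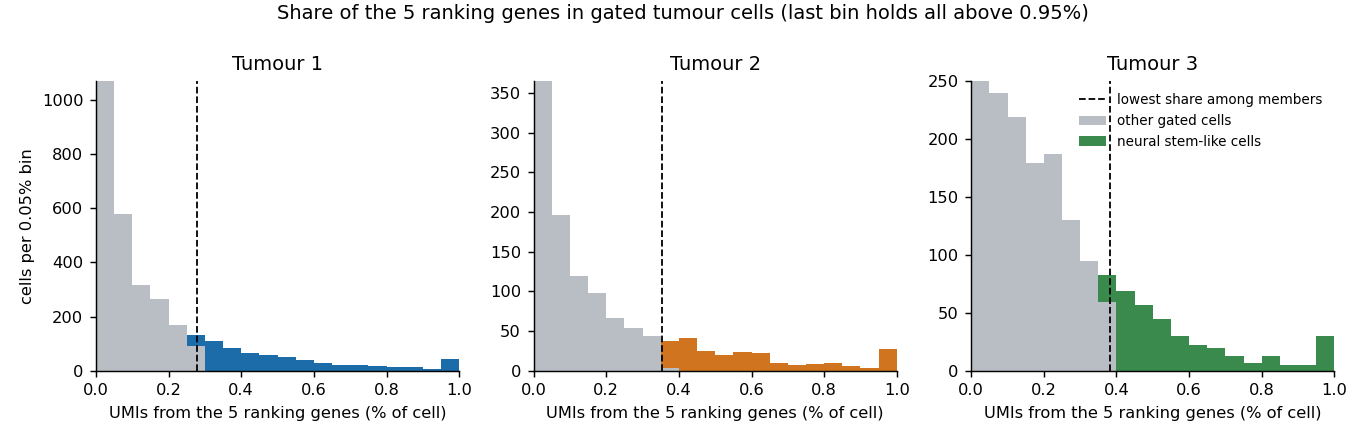
Number of gated cells (vertical axis) by the percentage of their UMIs that came from the 5 ranking genes (horizontal axis, bins of 0.05%, last bin open), for each tumour. Coloured bars are the members, grey bars the other gated cells, and the dashed line is the lowest share among members, at 0.2793, 0.3548 and 0.3819%; no dip in cell number sets the members apart.

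Which of the 5 genes made a cell a member differed between tumours. Sox9 (chr11:112782224-112787760, + strand, GRCm38) stood at 1595, 3054 and 806 CPM (the UMIs of a gene scaled to a total of 1000000) in the summed members of tumours 1, 2 and 3, against 141, 209 and 183 CPM in the other cells. Gstm1 (chr3:108012255-108017973, − strand) stood at 1555, 1508 and 3504 CPM against 254, 320.0 and 942 CPM. Sox9 was thus highest in tumour 2 and Gstm1 in tumour 3. Sox9 was the most abundant of the 5 in 32.4% of members in tumour 1, 51.9% in tumour 2 and 10.6% in tumour 3, and Gstm1 in 31.2, 22.4 and 70%.

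The other 3 ranking genes led fewer cells in tumours 1 and 2, whereas in tumour 3 Fjx1 led 10.9% of members, close to Sox9. Fjx1 (chr2:102449366-102452499, − strand) reached 691, 901 and 1003 CPM in members against 259, 337 and 381 CPM, a ratio of 2.63 to 2.67 in each tumour. 1500015O10Rik (chr1:43730602-43742578, + strand) reached 738, 297 and 441 CPM against 80.9, 64.2 and 84.0 CPM. Nrgn (chr9:37544492-37552904, − strand) reached 596, 478 and 86.4 CPM against 151, 159.9 and 40.2 CPM, and made up only 1.48% of the ranking UMIs of members in tumour 3. Nrgn was also present in cells with mesenchymal markers, at 469.6, 404 and 479.5 CPM, which in tumour 3 lies above its level in the members.

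When every cell was thinned to 5000 UMIs, a mean of 3.15, 3.02 and 2.88 of the 5 genes was detected per member against 1.66, 1.72 and 2.02 per other cell. All 5 were seen together in 6.28% of members in tumour 1, 1.27% in tumour 2 and 1.47% in tumour 3. Sox9 was detected in 66.0, 80.6 and 64.1% of members after thinning (69.6, 82.7 and 75.0% before). In endothelial-marked cells, a non-neural background with median depths of 9916, 9495 and 14341.5 UMIs, Sox9 was detected in 28.4, 19.4 and 20% after thinning. The other gated cells, at 22.4, 26.9 and 35.1%, were below that background in tumour 1 and above it in tumours 2 and 3.

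The cells were also ranked by 4 of the 5 genes and the gene left out was read, as a description in which the most abundant of the 4 weigh most. Sox9 was 1.68, 2.27 and 1.79 times higher in the top 20% ranked without it, Gstm1 2.08, 1.81 and 1.35 times and Fjx1 1.63, 1.46 and 1.47 times. 1500015O10Rik was 1.95 times higher in tumours 1 and 3 and at 0.962 times in tumour 2. Nrgn was 1.39 times higher in tumour 1, but lower in tumours 2 and 3 at 0.708 and 0.772 times.

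**Figure D2:**
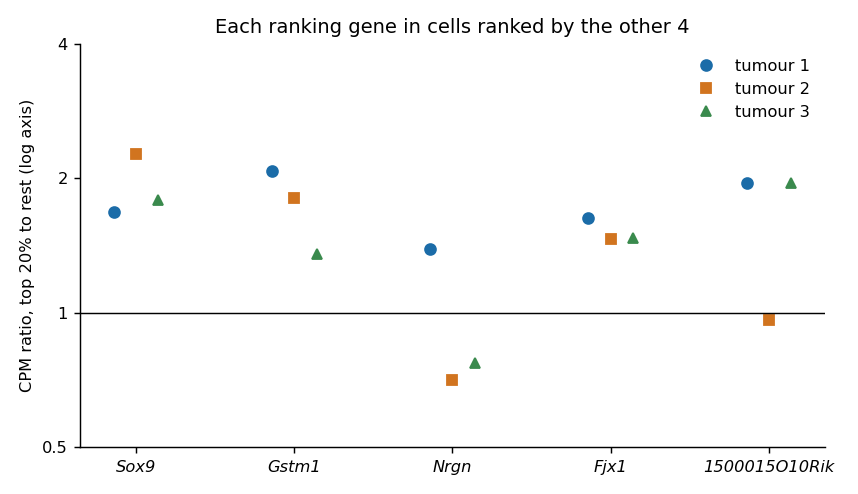
Ratio of CPM in the top 20% to the remaining gated cells (vertical, log axis) for each ranking gene (horizontal) when the cells were ranked by the other 4, with 1 point per tumour. Sox9, Gstm1 and Fjx1 lie above 1 in every tumour, whereas Nrgn lies below 1 in tumours 2 and 3.

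The tumour identity of the cells was checked with Smarcb1 (chr10:75896769-75921617, − strand), the deleted gene. Members held 3, 3 and 4 Smarcb1 UMIs, which is 0.441, 1.41 and 0.579 CPM, with 95% Poisson intervals of 0.0909 to 1.29, 0.291 to 4.13 and 0.158 to 1.48 CPM that cover counting error only. The other gated cells held 2.01, 4.88 and 1.58 CPM. Endothelial-marked host cells held 33.8, 35.5 and 41.8 CPM, and immune-marked host cells 25.1, 16.9 and 15.6 CPM. Members were thus near 0 and far below host cells. The exons removed by the Cre are not given in the sources used here and reads come from the 3′ end, so this reads the level of the transcript and not the deletion. Within the other cells, Smarcb1 was highest in the fourth of them with the lowest ranking share, at 5.45, 14.5 and 3.72 CPM. Smarcb1 differed between members and others by −1.71 (log2, SE 0.400, adjusted p = 0.0433), and by −1.52 and −1.72 without tumours 1 and 2, where it did not pass (adjusted p = 0.249 and 0.156), nor did it with DESeq2. It was not tested when cells with markers of further cell types were left out.

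Those further cell types move with the comparison. Of the other gated cells, 23, 4 and 24 carried 2 or more mural cell markers, whereas no member did, and oligodendrocyte precursor markers were in 38, 42 and 12 others against 0, 2 and 0 members. The summed level of 8 oligodendrocyte genes was 93.5, 669 and 27.8 CPM in members against 713, 2886 and 57.2 CPM, with Cldn11 and Ermn at 0 in the members of tumour 3. The summed 10 immune genes were 40.4, 75.4 and 50.1 CPM against 39.8, 75.3 and 36.5 CPM. Astrocyte markers were in 29, 19 and 10 members (4.67, 8.02 and 2.94%) against 3.06, 4.43 and 2.06% of others. The summed 9 choroid plexus genes stood at 1099.7, 5514 and 381 CPM in members against 309, 1385 and 350.3 CPM. Ttr, the transthyretin gene of the choroid plexus, stood at 778, 5096 and 0 CPM against 0.894, 1047 and 0.0368 CPM and did not pass (adjusted p = 0.0873). In tumour 1 Ttr stood at 4984 CPM in the members led by 1500015O10Rik, but 5 cells held 99.9 and 99.6% of the Ttr UMIs of members in tumours 1 and 2, and after thinning Ttr was detected in 1.29 and 13.5% of members against 0.442 and 13% of others. Of 5 tested genes of this list 1 was called (Enpp2, higher). The summed ependymal genes were 80.2, 85.7 and 32.9 CPM in members against 28.8, 62.5 and 20.8 CPM, and 1.29, 0.844 and 0.588% of members against 0.322, 0.738 and 0.221% of others carried 2 or more of 3 ependymal markers. The test across genes was therefore repeated without the cells that carry such markers, mural cells included, and this is what is meant below by leaving out the cells marked as other types. The quintile series, the detection shares and the values by leading gene were not.

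Across all genes, members differed broadly from the other cells of the same tumours. Of 13283 genes tested with edgeR's quasi-likelihood test with the tumour as a block, 903 were higher in members (6.80% of those tested) and 513 lower (3.86%) at an adjusted p under 0.05. The median log2 difference over all tested genes was −0.006, and 1410 of the 1416 called genes moved the same way in all 3 tumours. Without the cells marked as other types, mural cells included, 1036 genes were higher and 563 lower, and 1280 called genes were shared with the full comparison. The number of calls rested on tumours 1 and 2. Without tumour 1, 142 genes were higher and 74 lower, without tumour 2, 181 and 79, and without tumour 3, 1249 and 711.

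Some genes of neural stem and radial glial cells were higher in members. Of 23 tested genes of this list 7 were higher (30.4%, against 6.80% of all genes) and none was lower, with a median log2 difference of 0.45. Sox3 was not tested. The 7 genes were Fabp7, Ttyh1, Dbi, Hopx, Ednrb, Ptprz1 and Vim. Without the cells marked as other types, 7 were higher and 1 lower. Without tumour 1, and likewise without tumour 2, 5 were higher, and without tumour 3, 12 were higher and 2 lower.

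Fabp7 (chr10:57784881-57788450, + strand), the brain lipid-binding protein of radial glia, reached 4497, 4923 and 1941 CPM in members against 1739, 1433 and 748 CPM in others. Both levels were lowest in tumour 3, and members exceeded others in each tumour, by 1.59 (log2, SE 0.0894, adjusted p = 0.00116). It was detected in 93.9, 92.0 and 75.3% of members and in 79.0, 75.3 and 61.7% of others at 5000 UMIs, against 45.7, 36.1 and 28.3% of endothelial-marked cells (97.9, 96.2 and 92.9% of members before thinning). Members were thus set apart more by the number of Fabp7 transcripts than by their presence. Fabp7 was present whichever ranking gene led. In tumour 1 it stood at 4102 CPM in members led by Sox9, 5426 CPM in those led by Gstm1, 5254 CPM in those led by Fjx1 and 2987 CPM in those led by Nrgn.

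Ttyh1, a membrane protein of neural stem cells, stood at 603, 847 and 657 CPM in members against 276, 353 and 374 CPM (log2 difference 1.14, SE 0.0936, adjusted p = 0.00255). Dbi, the diazepam-binding inhibitor and acyl-CoA carrier, stood at 1242, 1795 and 518 CPM against 538, 639 and 388 CPM (1.12, SE 0.193, adjusted p = 0.0190). The difference in Dbi was smallest in tumour 3, where after thinning it was detected in fewer members than others (70.3 against 76.7%). The call of Dbi was lost without tumour 1 and without tumour 2. Vim, the intermediate filament vimentin, stood at 2137, 1622 and 1992 CPM against 1316, 1084 and 1457 CPM (0.66, SE 0.0580, adjusted p = 0.00311). Fabp7, Ttyh1 and Vim kept their calls in every alternative except the fit without the tumour block.

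Of the defining stem cell genes, 4 did not pass the test over the 3 tumours. Sox2, which maintains neural progenitors, stood at 430.3, 446 and 362 CPM in members against 384, 339 and 409 CPM, so the groups overlapped and tumour 3 went the other way (log2 difference 0.20, SE 0.109, adjusted p = 0.284). Nes (nestin) stood at 85.4, 56.0 and 39.2 CPM against 55.1, 53.7 and 31.8 CPM (0.45, SE 0.114, adjusted p = 0.0547). Hes5, a Notch target of radial glia, stood at 105, 229 and 101 CPM against 65.1, 61.2 and 92.5 CPM (0.94, SE 0.301, adjusted p = 0.10). Slc1a3, the glial glutamate transporter, stood at 161, 227 and 56.7 CPM against 105, 120.3 and 60.5 CPM (0.57, SE 0.180, adjusted p = 0.0969). Without tumour 3 all 4 passed, Sox2 by 0.37 (adjusted p = 0.00623), Nes by 0.51 (adjusted p = 0.0211), Hes5 by 1.33 (adjusted p = 0.00199) and Slc1a3 by 0.85 (adjusted p = 1.16e-04), and none passed without tumour 1 or without tumour 2.

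Of 14 astrocyte genes 8 were higher (Gfap, Gja1, Aldh1l1, Sparcl1, Clu, Apoe, Mlc1 and Slc4a4), which is 57.1% against 6.80% of all genes, and none was lower, with a median of 0.90, and 8 were also higher without the cells marked as other types, where Gfap was no longer called. At 10000 UMIs or more 4 were higher. Without tumour 1, and likewise without tumour 2, 3 were higher, and without tumour 3, 10 were higher and 1 lower. Their summed level was 1148, 2507 and 755 CPM in members against 616, 1119 and 589 CPM. Aqp4, the water channel of mature astrocytes, was at 7.05, 8.95 and 0.868 CPM against 6.26, 6.81 and 3.53 CPM and did not pass (adjusted p = 0.830). Of 10 gliogenic transcription factors, Id4 and Zbtb20 were higher, by 0.67 (adjusted p = 0.00821) and 0.23 (adjusted p = 0.0214), and neither call held without tumour 1 or without tumour 2.

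Many genes of neurogenic progenitors were lower. Of 19 tested genes 10 were lower (52.6%, against 3.86% of all genes) and 1 was higher, with a median log2 difference of −0.93. Among the lower genes were Dll3, Insm1, Dlx5, Dll1, Neurog2, Hes6, Sox4, Sox11 and Mycn. The gene that was higher was Btg2, an antiproliferative gene that is also an immediate early gene. Without the cells marked as other types 12 were lower. Without tumour 1, 6 were lower, without tumour 2, 7 and without tumour 3, 15.

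The Notch ligand Dll3 (chr7:28293553-28302238, − strand) stood at 7.05, 4.71 and 4.78 CPM in members against 36.2, 26.1 and 38.1 CPM, which is a difference of −2.55 (log2, SE 0.165, adjusted p = 0.00160). Insm1, a zinc finger factor of delaminating neuronal progenitors, stood at 11.3, 8.01 and 1.74 CPM against 63.5, 41.4 and 10.9 CPM (−2.41, SE 0.123, adjusted p = 0.00116). No member sum reached the lowest sum of the others for Dll3, and both genes were lower in every tumour. Dll1 stood at 52.3, 50.4 and 27.5 CPM against 142, 121 and 106 CPM (−1.49, SE 0.135, adjusted p = 0.00311). Hes6, which opposes HES1 during neurogenesis, stood at 47.6, 51.3 and 77.0 CPM against 179, 121 and 158 CPM (−1.33, SE 0.159, adjusted p = 0.00612), a call lost without tumour 2.

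Members of the Dlx family, factors of the ganglionic eminence and its interneurons, did not move together. Dlx5 stood at 4.70, 5.18 and 0.579 CPM against 14.1, 15.9 and 5.74 CPM (−1.84, SE 0.303, adjusted p = 0.0163), a call lost without tumour 1 and without tumour 2. Dlx2 stood at 78.9, 123 and 64.3 CPM against 119.6, 98.1 and 60.8 CPM, with members lower in tumour 1 and higher in tumours 2 and 3 (−0.01, SE 0.164, adjusted p = 0.977). Among neuronal genes, 4 of 15 were lower (26.7%, against 3.86% of all genes) and none higher. The 4 were Tubb3, Map2, Elavl3 and Neurod1, and the gate had removed cells with 2 or more neuronal markers. Without tumour 1, and likewise without tumour 2, none of the 15 was called, and without tumour 3, 2 were higher and 7 lower. The count of lower genes was 3 without the cells marked as other types and 1 at 10000 UMIs or more.

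**Figure D3:**
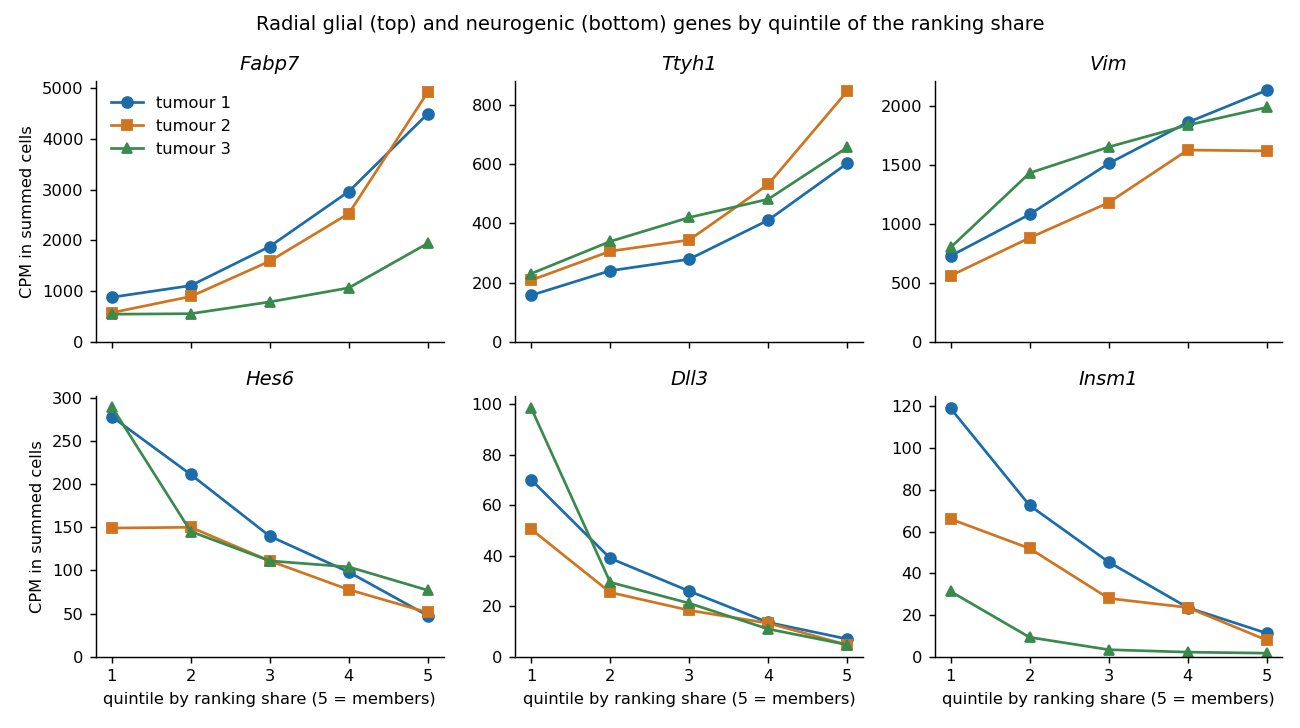
CPM in summed cells (vertical) by quintile of the gated cells ordered by ranking share (horizontal, 5 is the members and 1 to 4 divide the other cells evenly), for 3 radial glial genes above and 3 neurogenic genes below, with 1 line per tumour. Fabp7 and Ttyh1 rise and Dll3 and Insm1 fall through all 5 steps in each tumour.

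Fabp7, Ttyh1, Dll3 and Insm1 were graded over the ranking rather than set apart at the threshold, as the plot by quintiles of the ranking share shows. Fabp7 went from 877 to 1107, 1878, 2963 and 4497 CPM over the quintiles of tumour 1, from 572 to 4923 CPM in tumour 2 and from 543 to 1941 CPM in tumour 3. Dll3 went from 70.1 to 39.0, 26.0, 13.6 and 7.05 CPM in tumour 1, from 50.5 to 4.71 CPM in tumour 2 and from 98.5 to 4.78 CPM in tumour 3. Vim levelled off in tumour 2, at 1629 CPM in quintile 4 and 1622 CPM in the members. Sox2 had no steady course over the quintiles of tumour 1, at 392, 382, 389, 375 and 430.3 CPM. The same held in tumour 2, at 341, 335, 352, 328 and 446 CPM. In tumour 3 Sox2 fell, at 424, 424, 403, 389 and 362 CPM. These series describe the cells and carry no test.

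Among called genes with at least 20 CPM in the higher class of each tumour, Gm and Rik names left out, the 10 with the largest positive difference were Gfap, Cdo1, Isg15, Gdpd2, Ifi27l2a, Entpd2, Fabp7, Adcyap1r1, Csdc2 and Ndrg2. Cdo1 (cysteine dioxygenase) stood at 109, 124 and 118 CPM in members against 34.8, 32.7 and 42.2 CPM, close to each other in the 3 tumours (1.74, SE 0.0986, adjusted p = 0.00116). Gdpd2, a glycerophosphodiesterase, stood at 30.6, 23.5 and 69.6 CPM against 10.6, 7.61 and 22.7 CPM (1.66, SE 0.0939, adjusted p = 0.00116). Entpd2, an ectonucleotidase of neural progenitors, stood at 26.5, 39.6 and 24.0 CPM against 8.60, 10.9 and 10.7 CPM (1.60, SE 0.162, adjusted p = 0.00391). Adcyap1r1 (the PACAP receptor), Csdc2 (an RNA-binding protein) and Ndrg2 differed by 1.56, 1.54 and 1.52 with adjusted p = 0.00428, 0.00116 and 0.00255. Each of these 6 genes kept its call in every alternative with the tumour block.

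Gfap and Isg15 had a narrower base. Gfap, the astrocyte filament, stood at 27.5, 68.8 and 62.8 CPM against 7.23, 30.3 and 11.3 CPM (1.98, SE 0.221, adjusted p = 0.00520), but 54.5, 66.4 and 98.4% of its UMIs in members came from 5 cells per tumour. After thinning Gfap was detected in 3.38, 8.86 and 1.47% of members against 2.37, 5.17 and 1.47% of others and 1.23, 5.56 and 0% of endothelial-marked cells, which is near the background. Without the cells marked as other types its difference was 1.23 and did not pass (adjusted p = 0.414), but Gfap is itself 1 of the 3 astrocyte markers by which those cells were left out. Ifi27l2a and Isg15, both induced by interferon, stood at 282, 207 and 1265 CPM against 78.3, 83.5 and 482 CPM (1.60, SE 0.107, adjusted p = 0.00171) and at 52.2, 76.3 and 50.7 CPM against 10.9, 15 and 34.5 CPM (1.70, SE 0.355, adjusted p = 0.0321). The call of Isg15 was lost without tumour 1 and without tumour 2.

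Among the largest negative differences under the same limits were those of Rgs5, Dll3, Onecut2, C1ql3, Dll1, Hes6 and Pak3. Rgs5, a pericyte gene, stood at 0.882, 3.77 and 2.61 CPM against 93.8, 35.6 and 182 CPM (−5.83). Without the cells marked as other types, mural cells included, this difference was 0.33, but Rgs5 is itself 1 of the 5 mural markers, which were chosen after the data were seen, so that the loss follows in part from the choice of cells. Onecut2, a factor of early neurons, stood at 10.7, 26.4 and 18.2 CPM against 53.7, 66.1 and 60.5 CPM (−1.75, SE 0.172, adjusted p = 0.00372). C1ql3, a secreted synaptic protein, stood at 23.2, 22.1 and 20 CPM against 89.6, 66.3 and 55.4 CPM (−1.61, SE 0.111, adjusted p = 0.00194), a call lost when Gstm1 was left out of the ranking. Pak3, a kinase of the neuronal cytoskeleton, differed by −1.33 (adjusted p = 0.00963), a call lost without tumour 1 and without tumour 2. Without the cells marked as other types Onecut2, C1ql3 and Pak3 differed by −1.76, −1.67 and −1.33.

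**Figure D4:**
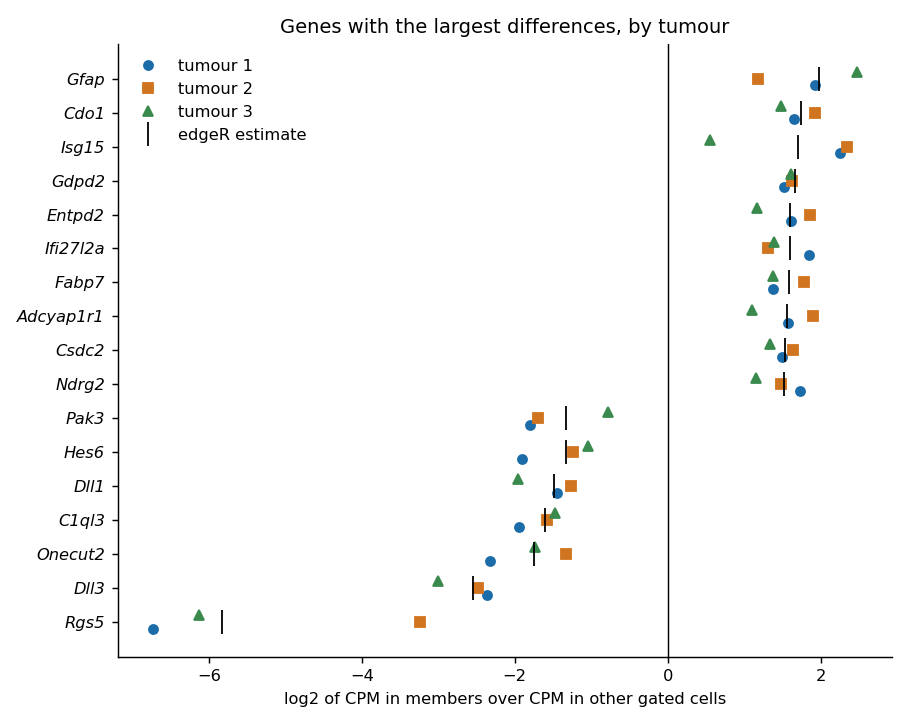
log2 of CPM in members over CPM in the other gated cells (horizontal) for 10 genes with the largest positive differences and 7 among those with the largest negative ones, of called genes at 20 CPM or more in the higher class of each tumour (vertical), with 1 point per tumour and the edgeR estimate as a bar. Points lie on the same side of 0 in all 3 tumours by the choice of genes; Rgs5 moves to 0.33 without the cells marked as other types, for which it is itself a marker.

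Of the cell cycle genes, some of S phase were lower and some of the cell cycle exit list higher. Of 18 S phase genes 3 were lower (Mcm3, Mcm7 and Gins2; 16.7%, against 3.86% of all genes) and none higher, with a median of −0.46 and all 18 differences below 0, from −0.74 to −0.13. Mcm7, a subunit of the replicative helicase, stood at 61.1, 65.5 and 47.3 CPM against 92.6, 99.5 and 70.4 CPM (−0.51, SE 0.0631, adjusted p = 0.00655). None of the 3 was called without tumour 1 or without tumour 2, and Mcm3 and Gins2 also lost their calls without tumour 3 and with DESeq2. Of 13 tested G2 and mitosis genes none was called by edgeR (2 at an unadjusted p under 0.05) or by DESeq2 (0 at an unadjusted p under 0.05), with a median of −0.18, in cells from which the gate had removed those with 3 or more of 4 such genes. Of 12 genes of cell cycle exit 3 were higher (Cdkn2b, Ccnd2 and Btg1; 25%, against 6.80% of all genes) and none lower. Cdkn2b, an inhibitor of G1 kinases, stood at 16.6, 17.9 and 12.0 CPM against 5.51, 4.31 and 4.90 CPM (1.67, SE 0.195, adjusted p = 0.00573), a call lost without tumour 1. Ccnd2, a G1 cyclin that promotes division, stood at 834, 664 and 218 CPM against 623, 593 and 198 CPM (0.32, SE 0.0689, adjusted p = 0.0343), and Btg1, an antiproliferative gene, differed by 0.23 (adjusted p = 0.0248). Both calls were lost without tumour 1 and without tumour 2, and that of Ccnd2 also without the cells marked as other types (adjusted p = 0.0596).

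Glutathione and redox genes, the functional neighbours of Gstm1, were higher in part. Of 23 tested genes 8 were higher (34.8%, against 6.80% of all genes) and none lower, with a median of 0.26. The 8 were Gstm5, Gstm6, Gsta4, Gstt1, Mgst1, Nqo1, Hmox1 and Prdx1. Nqo1, a quinone reductase, stood at 20.4, 21.2 and 9.55 CPM against 8.87, 12.6 and 5.41 CPM (1.03, SE 0.157, adjusted p = 0.0129). Gstm6 stood at 16.9, 13.2 and 10.4 CPM against 7.52, 6.02 and 4.90 CPM (1.21, SE 0.152, adjusted p = 0.00710), but Gstm5 and Gstm6 are close copies of Gstm1, the counting could divide reads between them, and the call of Gstm6 was lost when Gstm1 was left out of the ranking. Hmox1, heme oxygenase, stood at 6.76, 19.8 and 9.41 CPM against 4.95, 7.83 and 3.57 CPM (1.13, adjusted p = 0.0328), a call lost without the cells marked as other types. In members 5 cells per tumour held 45.7, 69.0 and 83.1% of its UMIs. After thinning it was detected in 2.90, 4.64 and 2.35% of members against 2.41, 2.53 and 1.47% of others. The calls of Nqo1, Gstm6 and Hmox1 were also lost without tumour 1 and without tumour 2. Without tumour 1, 1 gene of the list was higher, without tumour 2, 2 and without tumour 3, 11, with 1 lower. Leaving out the cells marked as other types gave 8 higher and 1 lower.

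The promoters of 3 of these genes are shown because they hold the core letters of the antioxidant response element, TGACNNNGC, a short motif found at many detoxification genes. The windows are the 250 bases before the start, 5′ to 3′ on the + strand, from RefSeq on GRCm38.p6, with the match in capitals. Mgst1 and Prdx1 hold the match on the − strand, so that its reverse complement is printed.

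Gstm5 (chr3:107895604-107895853): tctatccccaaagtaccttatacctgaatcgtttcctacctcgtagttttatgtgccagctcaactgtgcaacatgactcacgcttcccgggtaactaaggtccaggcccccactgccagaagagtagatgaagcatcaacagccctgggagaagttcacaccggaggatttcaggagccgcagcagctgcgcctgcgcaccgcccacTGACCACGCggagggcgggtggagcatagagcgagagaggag
Mgst1 (chr6:138140277-138140526): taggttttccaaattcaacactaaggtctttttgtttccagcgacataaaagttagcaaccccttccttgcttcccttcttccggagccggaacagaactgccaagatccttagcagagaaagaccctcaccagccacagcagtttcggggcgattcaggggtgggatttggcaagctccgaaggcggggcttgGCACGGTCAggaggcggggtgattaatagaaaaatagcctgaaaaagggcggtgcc
Prdx1 (chr4:116685349-116685598): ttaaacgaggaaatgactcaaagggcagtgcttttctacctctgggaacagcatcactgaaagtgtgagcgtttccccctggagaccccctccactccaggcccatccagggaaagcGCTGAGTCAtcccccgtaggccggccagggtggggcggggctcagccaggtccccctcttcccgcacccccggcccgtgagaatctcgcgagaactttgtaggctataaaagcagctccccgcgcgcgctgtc

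Searched on both strands in windows of 300 bases that reach 50 bases past the start, the motif was in at least 1 window of 3 of the 6 higher genes with an entry in the table, and of 3 of the 12 genes that were not called. Of all 32851 promoter windows, 12.4% held it, a share per window that cannot be set directly against the counts per gene. A match of letters is a description of the sequence only. Mgst1, a microsomal glutathione transferase, stood at 145, 81.0 and 472 CPM against 92.4, 56.0 and 335 CPM (0.63, SE 0.0610, adjusted p = 0.00358), Gstm5 at 411, 658 and 618 CPM against 289, 310.3 and 435 CPM (0.77, SE 0.121, adjusted p = 0.0138), and Prdx1, a peroxiredoxin, at 549, 575 and 439 CPM against 487, 501 and 419.5 CPM (0.22, SE 0.0529, adjusted p = 0.0452).

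Functional neighbours of the other ranking genes were also read. Of 16 Fat-Dachsous and Hippo genes 3 were higher (Fat1, Dchs2 and Cyr61; 18.8%, against 6.80% of all genes) and 2 lower (Amotl2 and Tead1; 12.5%, against 3.86%). The giant cadherin gene Dchs2 stood at 44.4, 24.5 and 14.3 CPM against 25, 9.88 and 7.25 CPM (1.06, adjusted p = 0.00633), and Amotl2, a YAP-binding protein, at 117, 111 and 99.6 CPM against 216, 212 and 161 CPM (−0.75, adjusted p = 0.00255). Of 11 calmodulin genes and partners 2 were higher (18.2%, against 6.80% of all genes). Camk2d and Pcp4 differed by 0.76 and 0.69 (adjusted p = 0.00534 and 0.00370). Of 6 tested SOX genes outside the radial glial list only Sox12 passed (16.7%, against 3.86% of all genes lower). It was lower, by −0.58 (adjusted p = 0.0256). The call of Dchs2 was lost without tumour 1, that of Camk2d without tumour 2 and those of Cyr61 and Sox12 without tumour 1 and without tumour 2. Of the Fat-Dachsous and Hippo genes 1 was higher without tumour 1 and 2 without tumour 2.

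Of the signalling lists, the FGF list held 2 receptors that were higher. Fgfr1 stood at 664, 789 and 865 CPM in members against 322, 510.0 and 524 CPM, with every member sum above every other sum (0.88, SE 0.0821, adjusted p = 0.00337). Fgfr2 stood at 98.6, 118 and 209 CPM against 56.2, 40.4 and 161 CPM (0.91, SE 0.198, adjusted p = 0.0359), and the feedback inhibitor Spry2 at 405, 576 and 248 CPM against 285, 399 and 214 CPM (0.49, SE 0.0791, adjusted p = 0.0148). The calls of Fgfr2 and Spry2 were lost without tumour 1 and without tumour 2. In all, 3 of 15 FGF genes were higher. Of 15 BMP and TGF-beta genes Tgfb2 and Bmpr1b were higher (13.3%), by 0.83 and 0.67. Of 14 WNT genes Tcf7l1, Rspo3, Wnt5a and Wnt7b were higher (28.6%). The WNT inhibitor Nkd1 was lower (7.14%, against 3.86% of all genes), by −0.97 (adjusted p = 0.00337). Tgfb2 lost its call without tumour 2, and Bmpr1b, Rspo3 and Wnt7b lost theirs without tumour 1 and without tumour 2. Of all WNT genes none was called higher without tumour 1 or at 10000 UMIs or more, and 1 was without tumour 2. Cholesterol synthesis had 1 of 14 genes higher (Cyp51), and hypoxia and glycolysis had Egln3 higher and Ndrg1 lower, shares of 7.14% near the 6.80 and 3.86% of all genes. Ndrg1 was not tested without the cells marked as other types.

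**Figure D5:**
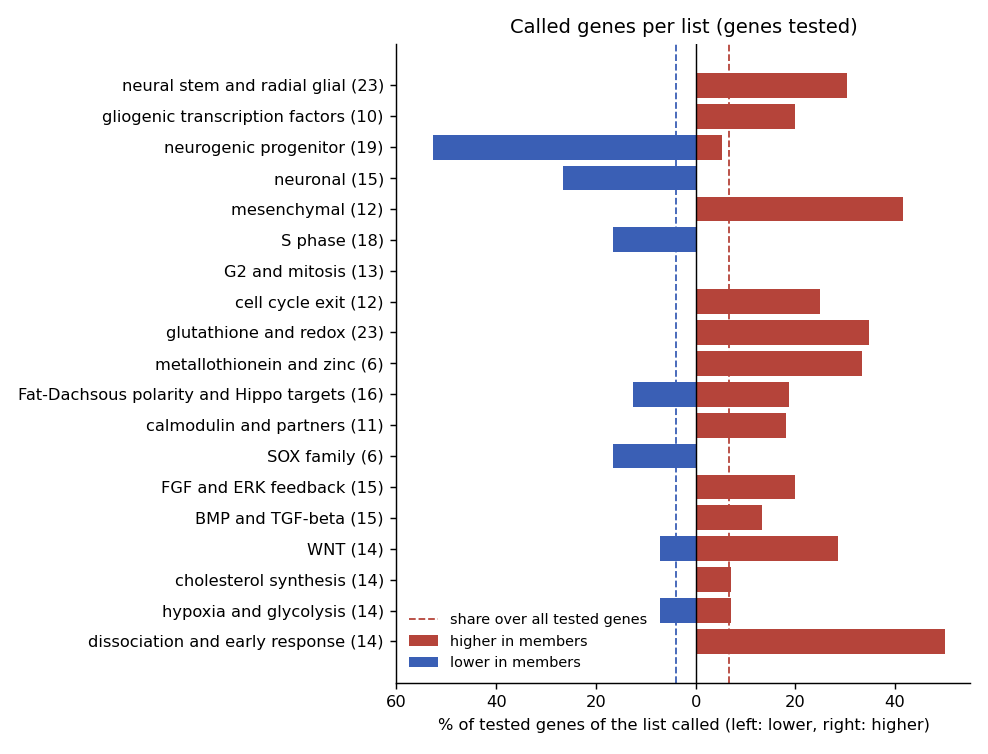
Percentage of the tested genes of each list other than those of further cell types (number tested in brackets) that were called higher (right) or lower (left) in members, with the shares over all tested genes, 6.80 and 3.86%, as dashed lines. Among the lists drawn, the neurogenic progenitor list has the longest bar to the left at 52.6%, and the dissociation and early response list the longest to the right at 50%.

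Some mesenchymal genes and some that respond to dissociation were also higher. Of 12 tested mesenchymal genes 5 were higher (Col1a1, Pmp22, Cdh11, S100a6 and Lgals1; 41.7%, against 6.80% of all genes) and none lower, with a median of 0.49, in cells from which the gate had removed those with 2 or more of Col3a1, Twist1 and Ogn. Without tumour 1, 4 were higher, without tumour 2, 3 and without tumour 3, 8. S100a6, a calcium-binding protein, stood at 349, 1014 and 295 CPM against 154, 355 and 146 CPM (1.32, SE 0.101, adjusted p = 0.00255), below the 881, 1037 and 1039 CPM of mesenchymal-marked cells, and 58.4% of its UMIs in the members of tumour 3 came from 5 cells. Of 14 genes that respond to tissue dissociation and other stimuli 7 were higher (50%, against 6.80% of all genes). These were Fos, Fosb, Jun, Junb, Jund, Egr1 and Zfp36. The 14 genes summed to 10295, 11111 and 7771 CPM in members against 6373, 7594 and 6040.3 CPM in others. Without tumour 1, and likewise without tumour 2, 2 of the 14 were higher, and without tumour 3, 11. Fos stood at 3504, 4057 and 2926 CPM against 1718, 2431 and 1804 CPM (0.90, SE 0.0686, adjusted p = 0.00255). Their part in the other differences was not tested.

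The metallothioneins Mt2 and Mt3, which bind zinc, were higher in members, mainly in tumours 1 and 2. Mt3 stood at 607, 940.0 and 129 CPM against 286, 371 and 106 CPM (1.00, SE 0.190, adjusted p = 0.0243), and Mt2 at 386, 767 and 76.3 CPM against 149, 358 and 65.6 CPM (1.01, SE 0.206, adjusted p = 0.0300). The ratio of Mt3 was 2.12, 2.53 and 1.22 in tumours 1, 2 and 3, so that tumour 3 contributed least. Both calls were lost without tumour 1, without tumour 2 and when 1500015O10Rik was left out of the ranking. That of Mt2 was also lost with DESeq2, when Sox9 was left out of the ranking and in the top 30%, and that of Mt3 at 10000 UMIs or more.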

How the data were processed

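The authors processed 10x Genomics 3′ libraries of 3 fresh tumours with Cell Ranger 3.1.0 on mm10 and deposited raw UMI counts per gene and barcode, with no normalisation and no cell annotation. The libraries held 79529921, 40151353 and 67645602 UMIs. Barcodes were gated and ranked as described above, and the counts of members and of other gated cells were summed per tumour. CPM values are these sums divided by their totals, and log2 differences are fitted from the counts.

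Sums were compared in edgeR 4.0.16 (R 4.3.3) by the two-sided quasi-likelihood test with TMM normalisation, filterByExpr, the tumour as a block and Benjamini-Hochberg adjustment over 13283 genes. The 5 ranking, 16 gate and mitochondrial genes stayed in the totals and were not tested. Both sums of a tumour come from the same animal, and their deviations from the class means correlated with r = 0.661, 0.703 and 0.834 over genes. DESeq2 1.42.0 was an alternative. The script was tested on simulated data.

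The members, the 26 gene lists and the rule for naming genes were chosen with earlier results of these data known. Named were 14 genes set by hand, up to 3 called genes per list, and the 10 largest positive and 8 largest negative differences with at least 20 CPM in the higher class of each tumour. Genes named Gm or ending in Rik were left out of the last, and called genes named in both steps moved the same way in 3 of 3 tumours. Other genes are named where a count is broken down, and 2 genes that met this rule are not reported here, though they enter the counts.

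Cells marked as other types carry 2 or more of a short marker list (astrocyte, oligodendrocyte precursor, oligodendrocyte, choroid plexus, ependymal, and mural cells, the last added after seeing the data). Scrublet in scanpy 1.11.5 scored doublets at a fixed 0.8% per 1000 barcodes, which marked 8.21, 2.53 and 1.47% of members. These stayed in the main comparison. Free RNA and doublets of like cells were not corrected. Positions are from GENCODE M21 (GRCm38), which held 31011 of the 31053 genes. Among named genes, exons of Ttyh1, Id4, Zbtb20, Neurod1, Dll1, Mcm7, Gins2, Ccnd2, Mt2, Dchs2, Fgfr1, Tgfb2, Rspo3, Wnt7b, Cyp51, Ndrg1, Zfp36 and Junb overlap a gene on the other strand, and those of Entpd2, Elavl3, Neurod1 and Fgfr2 a gene on the same strand. Whether counting used the strand is not given in the sources used here.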

Additional observations from a re-analysis of the deposited data

How the results depend on the processing

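Of 67 named and tested genes 62 were called, and 21 of these were called in every alternative that kept the tumour block. Over 24 alternatives, 1337 of 1595 gene values kept their direction and side of the threshold, 231 lost and 18 gained a call. The 9 reversals were Sox2 and Btg1 ranked without Sox9 (−0.0516 and −0.0299), Rgs5 without the cells marked as other types, mural cells included (0.33), and Dlx2, whose main value was −0.01, with DESeq2 (0.0169), without the block (0.00150), ranked without 1500015O10Rik (0.0106), Gstm1 (0.16) or Nrgn (0.0159), and over the tumours left out (−0.19 to 0.27).

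The fit with no replicate block, which ignores that both sums of a tumour come from the same animal, called 0 genes higher and 0 lower (932 at an unadjusted p under 0.05), and so 0 radial glial and 0 neurogenic genes. At 10000 UMIs or more, 475 genes were higher and 193 lower. DESeq2 called 306 lower and no filter on low counts 938 lower. Leaving out a tumour gave 142 to 1249 higher and 74 to 711 lower. Higher radial glial genes numbered 12 with no filter, 11 at 5000 UMIs and 5 to 12 with a tumour left out. Lower ones, 0 in the main fit, numbered 2 with no filter or ranked without Sox9, 1 against the lowest 20%, without other types with or without mural cells, with ranking and counting on separate UMIs, by mean rank, at 5000 UMIs and in the top 30%, and 0 to 2 with a tumour left out. Lower neurogenic genes numbered 6 to 15 and higher ones 1 with a tumour left out. Depth limits genes of a few CPM in tumour 2, whose members hold 2123332 UMIs.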
